A study of Mus musculus with 2 samples.

Results

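The replication-dependent histone genes are the genes of the mouse histone clusters, and they were taken as every row of the deposited gene table whose name begins with Hist1h, Hist2h, Hist3h or Hist4h. This gave 71 of 34745 listed genes, namely 6 for H1, 20 for H2A, 20 for H2B, 12 for H3 and 13 for H4. By cluster, 56 were Hist1 genes, 11 Hist2, 3 Hist3 and 1 Hist4. Hist2h2bb was listed on 2 rows with different identifiers, and both were kept.

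RNA of monocytic myeloid-derived suppressor cells (M-MDSC), immature monocyte-like cells that restrain T cells, was sequenced as 1 library per condition. Bone marrow of 6 to 8 week old mice was grown over 7 days in GM-CSF (50 ng/ml), a myeloid growth factor, either alone (CHBP- M-MDSC) or with CHBP, a cyclic peptide derived from erythropoietin (CHBP+ M-MDSC), and CD11b+Ly6G-Ly6C high cells were then sorted. As labelled, the mouse strain was C57BL/6 for the former and C57BL/7 for the latter, the study's methods give C57BL/6 for the mice, and the CHBP dose is not in the labels and is given differently in the study's methods and results. The methods do not say whether marrow of several mice was pooled, and with no replicates a difference between the treatments and any other difference between these libraries cannot be told apart.

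Core histones H2A, H2B, H3 and H4 form the protein spool around which DNA winds, and the linker histone H1 binds the DNA between spools. Cells make most of this protein during S phase from clustered genes without introns. Their mRNAs are unusual because they end in a conserved stem-loop, bound by the protein SLBP, in place of a poly(A) tail, although some members also make polyadenylated mRNA, mainly in cells that have stopped dividing. Kits that capture RNA by its poly(A) tail therefore recover few reads from these genes, and how RNA was selected for these libraries is not given in the sources used here.

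The stem-loop was searched for in the GENCODE M1 transcripts, which were matched to the table by gene identifier for 55 of the 71 members. The motif was a 6-base arm starting with GG, a loop of TTTN or TCTN, and a second arm that pairs fully with the first, read on the strand of the transcript. It was present in 38 of these 55 members and in 63 of 22699 other protein-coding genes (0.278%). In the longest transcript of each member it began 21 to 58 bases after the stop codon, with a median of 31. The following stretches are shown because they carry the stem-loop of members with many and with few reads, and capitals mark the stem-loop.
Hist1h1c: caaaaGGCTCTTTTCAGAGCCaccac
Hist3h2a: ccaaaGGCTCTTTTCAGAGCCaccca
Hist2h2aa2: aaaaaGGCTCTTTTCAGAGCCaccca
Hist1h4i: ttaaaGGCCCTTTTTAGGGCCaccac
Hist2h4: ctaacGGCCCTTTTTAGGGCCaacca
The arms and loop of Hist1h1c, Hist3h2a and Hist2h2aa2 were shared by 23 members, and those of Hist1h4i and Hist2h4 by these 2 members. No stem-loop was found in the GENCODE M1 transcripts of Hist1h2bc and Hist2h2be, which says only that these letters are not in these gene models.

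The polyadenylation signals AATAAA and ATTAAA, which mark where an ordinary mRNA is cut and tailed, were searched for in the last 40 bases of the same transcripts. Of 37 members whose model runs for at least 60 bases after the stop codon, 31 held the stem-loop, 16 held a signal and 11 held both. Over all protein-coding genes, 69.0% held such a signal in any transcript, with no minimum length after the stop codon. The counts of members used the longest transcript only, so these shares are not counted alike. The 5 members with the most reads all held one of these motifs, whose use as a signal was not tested. The model of Hist1h4i has 537 bases, against 727 behind its FPKM, so its motif may not lie near the end of the counted gene. The following stretches are shown because the 5 genes supplied most of the reads, with the signal in capitals.
Hist1h1c: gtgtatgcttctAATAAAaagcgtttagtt
Hist1h2bc: tgatgtatatatAATAAAtgtcatgtaaag
Hist2h2be: gttattattattAATAAAgttaccgattag
Hist3h2a: tgtgtctacaaaATTAAAggaagttccaat
Hist1h4i: ccgagtgttgggATTAAAggcgtgcgccac
In Hist1h1c the transcript continued for 839 bases past the stem-loop before it ended, and in Hist3h2a for 1487 bases. The transcript of Hist1h4i continued for 150 bases, and that of Hist2h2aa2, which held no signal, for 68 bases.

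**Figure D1:**
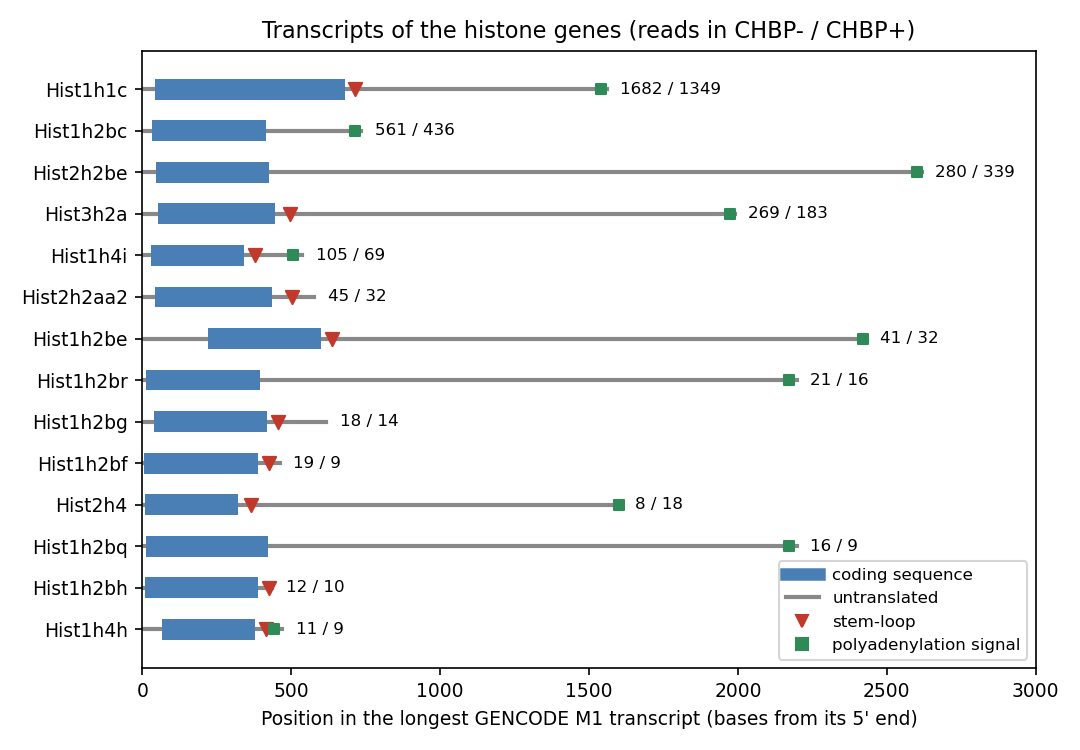
The longest GENCODE M1 transcript of each histone gene with at least 20 reads is drawn to scale in bases from its 5' end, with the coding sequence as a blue box, untranslated sequence as a grey line, the stem-loop as a red triangle and the polyadenylation signal as a green square. Numbers at the right are the reads in the CHBP- and the CHBP+ library, and the 5 genes at the top, each with a signal at its end, had at least 100 reads over both libraries.

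Few reads came from the histone clusters. Of 16484504 counted reads in CHBP- M-MDSC, 3161 lay on the 71 members, and of 16280466 in CHBP+ M-MDSC, 2608 did. That is 0.0192% of counted reads in the former (exact Clopper-Pearson 95% interval 0.0185% to 0.0199%) and 0.0160% in the latter (0.0154% to 0.0166%). No read fell on 15 members, 37 members had 1 to 9 reads over both libraries, 5 had 10 to 19, 14 had at least 20 and 5 had at least 100. For a member without reads, the depth allows a level of up to 0.182 CPM (counts scaled to the same library total) in the CHBP- library and 0.184 in the CHBP+ library, which is what 3 reads amount to. All such intervals and floors cover counting error only and compare these libraries, since reads are not independent molecules.

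Reads were concentrated in 5 genes. Hist1h1c, Hist1h2bc, Hist2h2be, Hist3h2a and Hist1h4i supplied 91.6% of the members' reads in the CHBP- library (90.6% to 92.6%) and 91.1% in the CHBP+ library (89.9% to 92.2%). The other 66 members shared 264 reads in CHBP- and 232 in CHBP+ M-MDSC. Hist1h1c alone supplied 53.2% and 51.7%, although 2085 genes of the whole table had more reads than it in CHBP- M-MDSC. The members known to make polyadenylated mRNA, listed from background knowledge as Hist1h1c, Hist1h2bc, Hist2h2be, Hist3h2a and Hist3h2ba, had 88.4% of the members' reads in the CHBP- library (87.2% to 89.5%) and 88.5% in the CHBP+ library (87.2% to 89.7%). Of these, Hist3h2ba had only 1 and 2 reads. The members known from testis, Hist1h1t, Hist1h2ba and Hist1h2aa, had no reads in either library.

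Most reads lay on members whose GENCODE M1 model has a long stretch after the stop codon, but not every such member had many. Hist1h1d, named after its values were seen, had the longest stretch, of 3097 bases, and 3 reads in each library. Its counted length was 744 bases, against 3821 in the model, so reads on most of that stretch were not counted for it. In the 13 members whose GENCODE M1 model has at least 300 bases after the stop codon, the reads came to 2882 in the CHBP- and 2390 in the CHBP+ library. The median was 16 per gene in each library, and 9 of the 13 held a polyadenylation signal. In the 42 members with a shorter stretch, the reads summed to 254 and 195, with a median of 1 in each library, and 7 held a signal. A longer transcript yields more reads at the same abundance, and some of these models differ from the ones used for counting, so this is a description of the annotation beside the reads. Among 7 listed RNAs without a poly(A) tail, namely Rmrp, Rny1, Rny3, Rpph1, Snora26, Terc and Vaultrc5, 3 had any read. Why these RNAs, which encode no protein, had few reads was not tested. Together the 7 had 15 reads in CHBP- and 14 in CHBP+ M-MDSC, of which 14 and 12 lay on the row named Snora26. That row has a length of 4693 bases, far beyond that of a small nucleolar RNA, so its reads are not shown to come from an RNA without a tail.

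**Figure D2:**
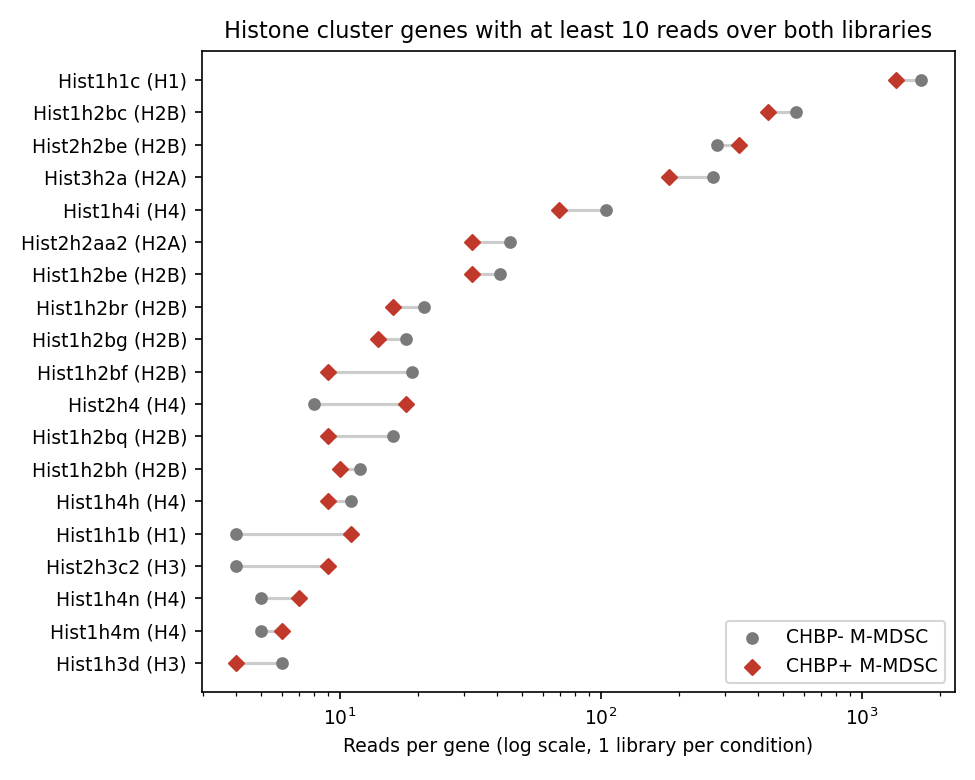
Reads per gene on a log axis are shown for the 19 histone genes with at least 10 reads over both libraries, with grey circles for CHBP- and red diamonds for CHBP+ M-MDSC, 1 library each. The order of genes is dominated by Hist1h1c, with 1682 and 1349 reads, and 13 of the 19 genes had the lower CPM in CHBP+ M-MDSC.

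Linker histone H1 was the class with the most reads, and nearly all of them came from a single gene. Hist1h1c encodes the linker histone now named H1f2 and lies as deposited on GRCm38 chromosome 13 from 23738808 to 23740367 (ENSMUSG00000036181). It had 1682 reads in the CHBP- and 1349 in the CHBP+ library, which are 65.4 and 53.1 FPKM (reads adjusted for gene length and library total). The CPM in CHBP+ M-MDSC was 0.812 times that in CHBP- M-MDSC (95% counting interval 0.755 to 0.873), a difference larger than counting error. The other 5 H1 genes had 8 and 16 reads together, a ratio of 2.03 whose interval of 0.818 to 5.47 includes 1. Of those reads, 4 and 11 were on Hist1h1b, which was chosen for naming after its values were seen. The summed H1 ratio of 0.818 (0.761 to 0.879) is therefore the ratio of Hist1h1c, and without that gene it lay on the other side of 1.

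Among the H2A genes, which encode the histone that pairs with H2B at the face of the nucleosome, Hist3h2a had most of the reads. It lies on chromosome 11 from 58954685 to 58956830 (ENSMUSG00000078851) and had 269 reads in the CHBP- and 183 in the CHBP+ library, which are 7.60 and 5.24 FPKM. Its CPM ratio was 0.689 (0.568 to 0.834), the lowest among the 4 members with the most reads, and its interval lay below 1. It overlaps Trim17, which had 3 reads over both libraries. Hist2h2aa2, on chromosome 3 from 96239749 to 96240276, had 45 and 32 reads, or 5.17 and 3.72 FPKM, with a ratio of 0.720 and an interval of 0.443 to 1.16 that includes 1.

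Reads of the Hist2h2aa pair cannot be assigned with confidence. Hist2h2aa1 was listed with 0 reads in both libraries, but its GENCODE M1 transcript of 578 bases had 0 bases different from that of Hist2h2aa2, and every stretch of 75 bases, the read length, in Hist2h2aa2 (100%) occurs in another gene. How reads that fit several places were counted, and whether strand was used, is not given in the sources used here. Gm20632, which overlaps Hist2h2aa2, had 26 and 29 reads, and the sum of both genes was 71 and 61 reads with a ratio of 0.870 (0.608 to 1.24). The predicted genes Gm20633 and Gm20634, which overlap Hist2h2aa1, had 16 and 19 reads and 64 and 54 reads. Hist2h3c1, an H3 gene with no reads, also overlaps Gm20634.

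The summed H2A reads were 328 in CHBP- and 232 in CHBP+ M-MDSC, a CPM ratio of 0.716 (0.603 to 0.850). Most of this sum was Hist3h2a, and the remaining 19 genes had 59 and 49 reads, with a ratio of 0.841 (0.564 to 1.25). With the members that overlap another gene with reads left out, which removes both Hist3h2a and Hist2h2aa2, 14 and 17 reads were left with a ratio of 1.23 (0.570 to 2.69), too few to give the class a direction without these genes.

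H2B held 8 of the 14 members with at least 20 reads, and its leading genes differed in direction. Hist1h2bc, on chromosome 13 from 23684199 to 23692488 (ENSMUSG00000018102), had 561 reads in the CHBP- and 436 in the CHBP+ library, which are 46.2 and 36.4 FPKM. Its CPM ratio was 0.787 (0.693 to 0.893). Hist2h2be, on chromosome 3 from 96221119 to 96223738 (ENSMUSG00000068854), had 280 and 339 reads, or 6.48 and 7.95 FPKM. Its ratio was 1.23 (1.04 to 1.44), and it was the single histone gene whose interval lay above 1. The intervals of these H2B genes do not overlap each other. No stretch of 75 bases in the GENCODE M1 transcript of Hist2h2be (0%) occurs in another protein-coding gene, against 44.3% of those in Hist1h2bc. Only protein-coding transcripts were searched, so copies in other sequence were not looked for.

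The H2B genes with fewer reads were mostly lower in CHBP+ M-MDSC, each within counting error. Hist1h2be had 41 and 32 reads with a ratio of 0.790 (0.482 to 1.29), Hist1h2bg 18 and 14, Hist1h2bh 12 and 10, and Hist1h2bf 19 and 9. Hist1h2bf had 2.50 and 1.20 FPKM and a ratio of 0.480, but with so few reads the interval of 0.191 to 1.11 includes 1. Hist1h2br had 21 and 16 reads and Hist1h2bq 16 and 9. Of the 75-base stretches of their GENCODE M1 models, 96.6% and 100% occur in other genes. Reads of both genes were therefore also summed, with a ratio of 0.684 (0.395 to 1.17). Those models have 2197 bases, against counted lengths of 3453 and 4136, so the remaining sequence was not searched. The 18 H2B genes with under 100 reads together had 138 and 98 reads, a ratio of 0.719 (0.549 to 0.938). The whole H2B class had 979 and 873 reads with a ratio of 0.903 (0.823 to 0.990), the ratio closest to 1 among the 5 classes. Without Hist1h2bc it was 1.06 (0.924 to 1.21).

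H3 genes, which encode the core histone whose tail carries many of the regulatory marks on chromatin, had almost no reads. The 12 members had 15 reads in CHBP- and 20 in CHBP+ M-MDSC in all, or 0.475% and 0.767% of the members' reads, with a CPM ratio of 1.35 (0.657 to 2.83). A difference in H3 was not detectable at this depth. Over both libraries together, the H3 gene with the most reads was Hist2h3c2 with 4 and 9, which was named after its values were seen, with a ratio of 2.28 (0.636 to 10.1). The replication-independent genes H3f3a and H3f3b, which encode the H3.3 variant from polyadenylated mRNA throughout the cell cycle, together had 12245 and 9895 reads. Per length, those genes summed to 136.8 and 111.4 FPKM, against 1.56 and 1.74 FPKM for all 12 cluster H3 genes.

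Among the H4 genes, which all encode the same core histone, Hist1h4i had most of the reads. It lies on chromosome 13 from 22040636 to 22041362 (ENSMUSG00000060639) and had 105 reads in the CHBP- and 69 in the CHBP+ library, which are 8.76 and 5.83 FPKM. Its CPM ratio was 0.665 (0.484 to 0.910). Hist2h4 pointed the other way with 8 and 18 reads, a ratio of 2.28 whose interval of 0.943 to 6.06 includes 1. Hist1h4h had 11 and 9 reads. The H4 class had 149 and 118 reads with a ratio of 0.802 (0.624 to 1.03), and without Hist1h4i it had 44 and 49 reads with a ratio of 1.13 (0.735 to 1.73).

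**Figure D3:**
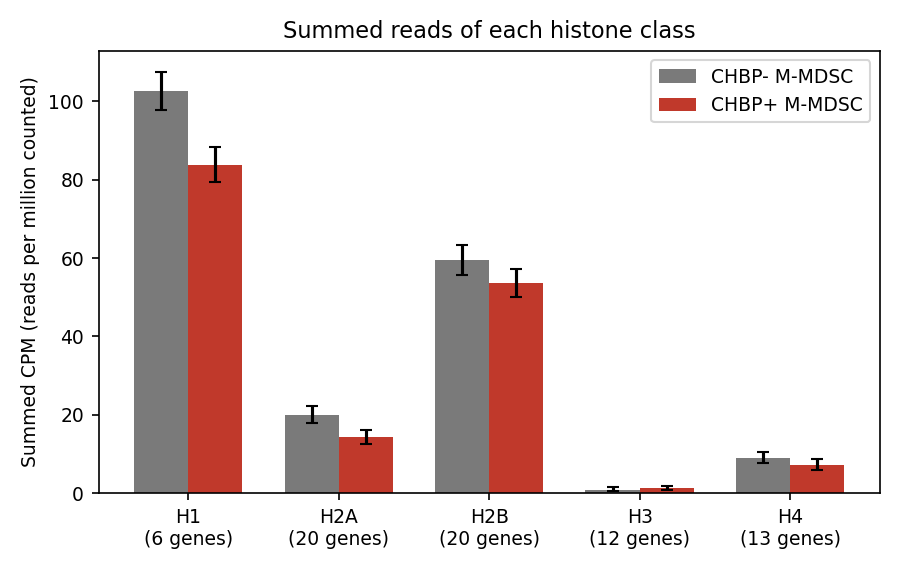
Bars from 0 give the summed CPM of each histone class in CHBP- (grey) and CHBP+ (red) M-MDSC, with exact Poisson 95% intervals that cover counting error only. H1 stands highest at 102.5 CPM in CHBP- M-MDSC, followed by H2B at 59.4, H2A at 19.9, H4 at 9.04 and H3 at 0.910.

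Per length the order of the classes changed little. Summed FPKM in CHBP- and CHBP+ M-MDSC were 66.1 and 54.4 for H1, 61.7 and 50.7 for H2B, 14.6 and 11.3 for H2A, 14.0 and 10.6 for H4, and 1.56 and 1.74 for H3. H1 and H2B were thus nearly level per length, as were H2A and H4, in either library. By cluster, the Hist1 genes had 2549 and 2021 reads, a CPM ratio of 0.803 (0.757 to 0.851), and the Hist3 genes had 272 and 186, a ratio of 0.692 (0.571 to 0.837). The Hist2 genes had 338 and 398 reads, a ratio of 1.19 (1.03 to 1.38), and most of these reads were Hist2h2be. Hist4h4, the single Hist4 gene, had 2 and 3 reads.

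Summed over all 71 members, the CPM in CHBP+ M-MDSC was 0.835 times that in CHBP- M-MDSC (0.793 to 0.880). The log2 ratio of FPKM + 1 between the libraries followed gene length across all genes. With that trend divided out of each member's CHBP+ reads, the log2 of this sum was -0.068 in place of -0.26. The counting error of the uncorrected sum was 0.075 to either side, which holds no error of the fitted trend. Without the 5 genes with the most reads the ratio was 0.890 (0.743 to 1.07), which includes 1. Without the members known to make polyadenylated mRNA it was 0.823 (0.704 to 0.961). In bulk RNA, fewer cells making histone mRNA and less histone mRNA per cell cannot be told apart.

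Gene by gene, 1.5-fold differences were rare. The log2 ratio compares FPKM + 1 of the CHBP+ library with FPKM + 1 of the CHBP- library, so it understates differences of low genes, and genes with at least 1 FPKM in either library were kept. Among 10 members that passed, 0 were 1.5-fold or more above their level in CHBP- M-MDSC, against 3.42% of the 10948 genes kept from the whole table, and 1 was 1.5-fold or more below it, against 2.89%. That member was Hist1h2bf, at a log2 ratio of -0.67 from 28 reads. The log2 ratio was below 0 for 9 of the 10 members, the exception being Hist2h2be at 0.26, and below 0 for 53.7% of all genes kept. Among genes kept within the length range of these members, it was below 0 for 1998 of 2504. From 388 to 1000 bases, it was below 0 for 427 of 543.

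Judged by counting error alone, 1 of 19 members with at least 10 reads had an interval of the CPM ratio above 1, namely Hist2h2be, against 24.1% of the 14162 genes with such depth. The interval lay below 1 for 4 members, namely Hist1h1c, Hist1h2bc, Hist3h2a and Hist1h4i, against 25.1% of all genes. The members' share below 1 is near that of the table, and all 5 members past either bound are the 5 with the most reads, where counting error is smallest. The CPM was lower in CHBP+ M-MDSC for 13 of the 19 members and for 51.7% of all genes with at least 10 reads.

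**Figure D4:**
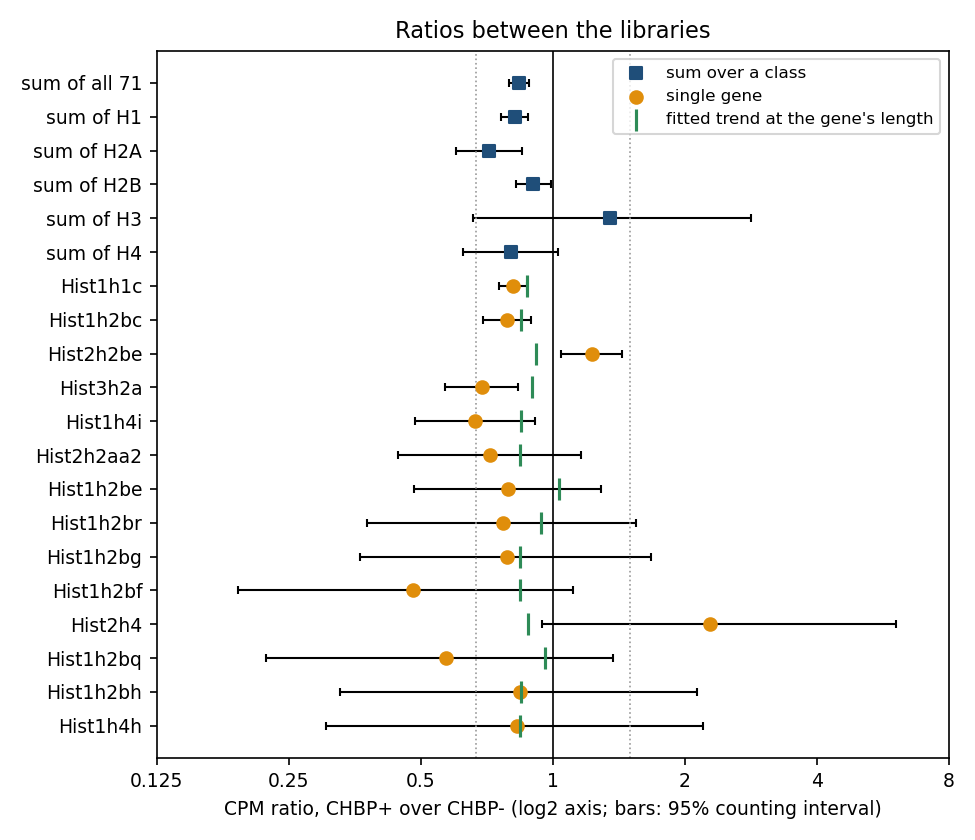
CPM ratios of CHBP+ over CHBP- M-MDSC are shown on a log2 axis with 95% counting intervals, for sums over classes (blue squares) and for the 14 histone genes with at least 20 reads (orange circles). Dotted lines mark 1.5-fold, green ticks mark the trend of the log2 ratio of FPKM + 1 fitted over all genes at each gene's length, and Hist2h2be is the gene whose interval lies wholly above 1.

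Histone genes are short, and the log2 ratio followed gene length across the whole table. The rank correlation of the log2 ratio with the length behind the FPKM (Spearman's rho) was 0.478 over the 10948 genes kept, given as a description because genes share these libraries. The 10 members kept were 388 to 2620 bases long, with a median log2 ratio of -0.32, while the median of all genes kept was -0.03 at a median length of 4935 bases. Over the 2504 genes of the same length range the median was -0.22, and over the 543 genes from 388 to 1000 bases it was -0.32, with 23 at least 1.5-fold higher and 77 lower.

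After the fitted trend with length was subtracted, the median of the members was -0.10. That of the genes of the same length range was -0.04, and that of the genes from 388 to 1000 bases was -0.08. The log2 ratio was then below 0 for 6 of the 10 members and above 0 for 4, since Hist1h2bg, Hist1h2bh and Hist1h4h, at 0.02, 0.09 and 0.09, joined Hist2h2be. Hist1h1c moved from -0.30 to -0.10 and Hist1h2bc from -0.34 to -0.09. Hist3h2a, Hist1h4i and Hist1h2bf remained further below, at -0.31, -0.27 and -0.42. Hist2h2be moved from 0.26 to 0.39, since genes of its length were mostly lower in CHBP+ M-MDSC. The part of length, or of how the libraries were made, in the values of the histone genes was not tested.

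**Figure D5:**
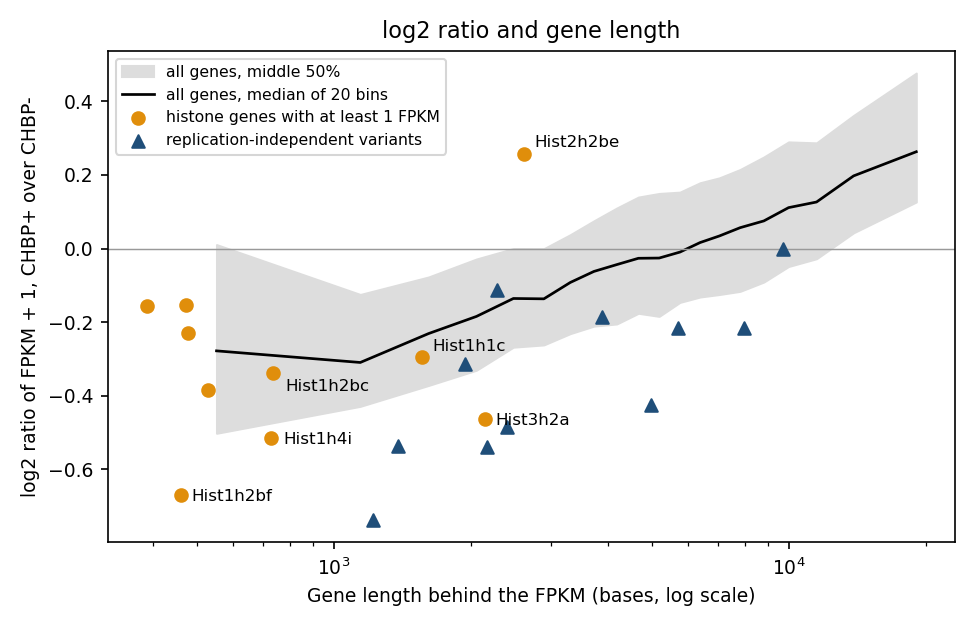
The log2 ratio of FPKM + 1 is plotted against gene length on a log axis, with the median and middle 50% of all genes kept in 20 bins, the 10 histone cluster genes with at least 1 FPKM (orange circles) and 11 replication-independent variants (blue triangles). Hist2h2be lies above the grey band at 0.26, Hist3h2a and Hist1h4i lie below it, and Hist1h1c and Hist1h2bc lie within it.

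Replication-independent histone variants, whose genes lie outside the clusters and mostly make ordinary polyadenylated mRNA, are the genes most like the members in function. All 11 were kept, 0 were at least 1.5-fold higher and 1 was lower, and all 11 log2 ratios were below 0, with a median of -0.31. H3f3b had 7987 reads in the CHBP- and 6781 in the CHBP+ library and a log2 ratio of -0.22. H2afy, which encodes macroH2A1, had 5277 and 4470 reads and also -0.22. H3f3a had 4258 and 3114 reads and -0.42, and H1fx, the gene past 1.5-fold, had 59 and 27 reads and -0.74. With the length trend removed the median of the variants was -0.29, so unlike that of the cluster genes it moved little. Summed over the 11 genes the CPM ratio was 0.830 (0.813 to 0.846), whose interval includes the 0.835 of the 71 cluster genes.

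Per length, the listed variants outweighed the cluster genes in H3, as given above, and in H2A, while no variant of H2B or H4 was listed. Variants of H2A summed to 97.7 and 75.7 FPKM in CHBP- and CHBP+ M-MDSC, against 14.6 and 11.3 for the cluster H2A genes. In H1 the cluster genes were higher, with 37.7 and 33.5 FPKM for H1f0 and H1fx against 66.1 and 54.4 for the cluster H1 genes. These sums rest on what each library captured, so they compare recovered reads and not protein.

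Genes that make, process or degrade histone mRNA were measured far more deeply than the histone genes themselves. Of 19 listed, 17 were kept, 0 were at least 1.5-fold higher or lower, 12 log2 ratios were above 0 and 5 below, and the median was 0.08. Npat, the coactivator that switches on the histone clusters at S phase entry, had 608 and 851 reads and a log2 ratio of 0.44. Zcchc6, which adds uridines to RNA ends, had 2502 and 3288 reads and 0.40. Lsm1, part of a complex that leads RNA to decay, had 307 and 209 reads and -0.47. Slbp, the stem-loop binding protein, was named after its values were seen and had 810 and 658 reads and -0.24.

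Genes of S phase and DNA replication were all kept, 32 of 32, and 0 were at least 1.5-fold higher and 1 lower. Their log2 ratios were above 0 in 7 and below 0 in 25, with a median of -0.11. Fen1, the flap endonuclease, had 1058 reads in CHBP- and 446 in CHBP+ M-MDSC and a log2 ratio of -1.05. Pcna, the sliding clamp, had 2312 and 1839 reads and -0.30, and Pola1, of the primase complex, had 694 and 896 and 0.32. By contrast, 52 of the 71 histone cluster genes had under 10 reads over both libraries.

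The labelled cell type was checked against its markers. Itgam, which encodes CD11b, was listed on 2 rows with 157.0 and 99.99 FPKM in the CHBP- and 232.4 and 152.9 in the CHBP+ library, Ly6c2 had 56.9 and 34.0 FPKM and Ly6g 2.19 and 2.12. Summed markers of several other cells were also lower in CHBP+ M-MDSC. The 8 erythroid markers summed to 1305 FPKM in the CHBP- and 602 in the CHBP+ library, with 3 at least 1.5-fold lower and Car1 at 0 reads. The 7 neutrophil precursor markers summed to 408 and 298 FPKM with 2 lower, the 4 B cell markers to 39.7 and 26.1 with 1 lower, and the 6 T cell markers to 4.04 and 3.32, with a CPM ratio of 0.859 whose interval of 0.681 to 1.08 includes 1. The 6 mast cell and basophil markers summed to 296.7 and 243.9 FPKM, with 1 at least 1.5-fold lower and 1 higher. The higher was Ms4a2, with 182 and 446 reads. The 6 monocyte markers summed to 10089 and 8147 FPKM, of which Lyz2 alone had 9756 and 7830. Among the 5 monocyte markers kept, 2 log2 ratios were above 0, those of Ccr2 and Csf1r, and 3 were below. The 6 dendritic cell markers summed to 269.7 and 261.4 FPKM but had the higher CPM in CHBP+ M-MDSC, at a ratio of 1.08 (1.06 to 1.10). Immature blood cells divide and make histone mRNA, and the part of such cells in the histone reads was not tested.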

How the data were processed

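RNA of M-MDSC was analysed from 1 library per condition, grouped by the labels. The authors removed adapters, low-quality bases, short reads and ribosomal reads. The submitters' processing notes name HISAT2 2.0.4, Cufflinks 2.1.1, Cuffdiff and the mm10 (GRCm38) build, whereas the study's methods name TopHat2, HT-seq and mm9. The deposited coordinates of all 71 members overlap the RefSeq genes matched by symbol or synonym on GRCm38.p6 and are given as deposited. Hist1h2al and Hist3h2bb-ps matched the RefSeq symbols H2af-ps2 and H2bu1-ps, which are marked as pseudogenes, and both were kept. The deposited counts are whole reads per gene, not normalized. The deposited FPKM are those reads scaled to gene length and library total, and the length was recovered from that relation.

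The members and gene lists were chosen with earlier results of these data known. Members with at least 20 reads and those listed as polyadenylated or testis-specific were named. Of other lists, at most the 4 genes with the most reads and the 2 highest and 2 lowest log2 ratios were named.

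With 1 library per condition no count model was fitted and no p-value is given. CPM ratios have exact Clopper-Pearson 95% intervals, for counting error only. Log2 ratios used a pseudocount of 1 and a minimum of 1 FPKM. The trend with length was a polynomial of degree 3 in log length. Stem-loops and signals were read from GENCODE M1 transcripts, an mm9 annotation, matched by gene identifier, so positions are within transcripts. Scripts were tested on simulated data. Python 3.11.15, numpy 2.4.6, pandas 2.3.3, scipy 1.17.1, matplotlib 3.10.9 and edgeR 4.0.16 in R 4.3.3 (trimmed mean of M values, an alternative scaling) were used. Also tried were 0.1 as the pseudocount, a minimum of 5 FPKM, no minimum, CPM, a fold of 2, removal of the length trend, and leaving out overlapping genes or the member with the most reads.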

Additional observations from a re-analysis of the deposited data

How the results depend on the processing

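The number of members at least 1.5-fold lower, 1 in the report, was 2 with no filter on FPKM, and 0 each with a minimum of 5 FPKM, with CPM, with the length trend removed and at a fold of 2. The median log2 ratio of members was 0 with no filter, which takes in members without reads, and -0.10 with the length trend removed. With that trend removed, the summed log2 ratio was -0.068 for all members and -0.10 for H1, for H4 it was -0.086, and for H2B it was 0.038 in place of -0.15. With the member with the most reads left out, it was 1.02 for H1 in place of -0.29, 0.082 for H2B, 0.018 for H3 in place of 0.43 and 0.17 for H4 in place of -0.32. For H2A it was 0.30 in place of -0.48 without overlapping members. Of 70 values of 14 single members under alternatives, 68 moved by less than their counting error, but 3 changed sign, those of Hist1h2bg, Hist1h2bh and Hist1h4h with the length trend removed, and Hist1h1c and Hist1h2bc moved to -0.10 and -0.09 there. The trimmed mean scaling shifted the CHBP+ library by 0.01 on the log2 scale, less for genes of low FPKM. Where no construction is named, the cause was not tested. No paired analysis was possible because each condition has 1 library, which also leaves no replicate to omit. Depth limits most members, 37 of which had 1 to 9 reads and 15 none.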

Other observations

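Histone chaperones, the proteins that carry new histones to DNA, were described from a list of 16 names of which 15 were in the table and kept. None was at least 1.5-fold higher or lower in CHBP+ M-MDSC, 4 log2 ratios were above 0 and 11 below, and the median was -0.13. Ssrp1, of the FACT complex, had 4868 and 4472 reads in the CHBP- and CHBP+ libraries and a log2 ratio of -0.10, while its partner Supt16 had 3063 and 3430 reads and 0.18. Chaf1b and Asf1b, which hand new H3 and H4 to replicating DNA, had the lowest log2 ratios of the list, -0.36 from 613 and 448 reads and -0.25 from 498 and 405 reads.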
